A study of Mus musculus with 18 samples.

Results

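The transcripts described here encode the subunits of the transcription factor NF-kappaB and the inhibitors that bind them. The set was defined by name and holds 10 genes of the 55414 in the count table: the subunit genes Nfkb1, Nfkb2, Rela, Relb and Rel, the genes of the classical inhibitors Nfkbia, Nfkbib and Nfkbie, and the genes of the nuclear inhibitors Nfkbiz and Bcl3. All 10 were among the 21772 genes that had at least 10 counts in total and were tested.

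RNA was sequenced from C2C12, a mouse cell line whose myoblasts fuse to myotubes in low serum, after 6 days of differentiation. Myoblasts received pooled siRNAs against Erk3 (siErk3; the gene is Mapk6, an atypical MAP kinase), against Mk5 (siMk5; Mapkapk5, a kinase that binds Erk3) or a non-targeting control pool (siNTC). The myotubes were then kept for 16 h without serum, either with 0.5 mM palmitic acid coupled to BSA (PA), a saturated fatty acid used to load muscle cells with lipid, or with BSA alone. The design asks how lipid load and loss of either kinase change the transcriptome of myotubes, and each of the 6 groups had 3 libraries. All groups shared the transfection, the differentiation and the serum-free medium, and all came from 1 cell line. The labels do not say whether the libraries of a group came from separate cultures, so p-values measure the spread between these libraries, which may be technical.

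NF-kappaB acts as dimers of the 5 subunits. In resting cells the dimers are held in the cytoplasm by classical inhibitors of the IkappaB family or by the unprocessed precursors encoded by Nfkb1 and Nfkb2. Toll-like receptors and cytokine receptors activate IkappaB kinase, the inhibitors are degraded, and the dimers enter the nucleus. Several subunit and inhibitor genes are themselves known NF-kappaB targets, which gives the pathway both positive and negative feedback. The nuclear inhibitors bind dimers on DNA and can repress or activate transcription. Only transcripts were measured here, not the amount, processing or location of the proteins.

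Libraries held 13041979 to 28496727 counts, and the lowest count of any member in any library was 69, for Bcl3. No member shared exonic bases with another gene on the same strand. The share of counts on 18S ribosomal RNA ranged from 1.5% to 12.87% and was highest in siMk5 BSA, where it lay between 8.39% and 12.87%. Mapk6 was called lower with siErk3 in both media (log2 fold change -1.20 in BSA and -0.95 in PA). Mapkapk5, a low-count gene with 56.4% of its exonic bases shared with Gm42878, had log2 fold changes of -0.61 and -0.49 with siMk5, and its FDR was 0.469 in both media. The authors also found that the decrease of Mk5 transcripts missed their FDR threshold, and they report efficient silencing of both kinases by Western blot. All 9 myotube markers were detected, with summed levels of 12500 to 15500 CPM (counts scaled to the TMM-adjusted library size) in BSA and 11500 to 13400 in PA. Of the markers of other cells, Adgre1, which marks macrophages, and Plin1, which marks adipocytes, were at 0 in every library. The other listed markers had counts and are described below. Among these, the 6 markers of undifferentiated or cycling myoblasts summed to 870 to 944 CPM in BSA and 363 to 479 CPM in PA.

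In the annotation of the count table (Ensembl 105, GRCm39) the subunit genes lie at chr3:135290416-135397308 (Nfkb1, minus strand), chr19:46292759-46300824 (Nfkb2, plus), chr19:5687511-5698158 (Rela, plus), chr7:19340142-19363363 (Relb, minus) and chr11:23686847-23720970 (Rel, minus). The classical inhibitors lie at chr12:55536195-55539432 (Nfkbia, minus), chr7:28457676-28466937 (Nfkbib, minus) and chr17:45866629-45874095 (Nfkbie, plus). The nuclear inhibitors lie at chr16:55631738-55659262 (Nfkbiz, minus) and chr7:19542387-19556695 (Bcl3, minus), the latter on the same chromosome as Relb and Nfkbib. Read pairs were counted over all exons of each gene, and isoforms were not told apart.

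Matches to the NF-kappaB binding motif near the start sites are shown first, because the levels of the same genes are reported below. Windows from 250 bases before to 50 bases after the start site of the canonical transcript (GENCODE M39) were read from the mouse genome (GRCm39) and searched on both strands for the kappaB consensus. The consensus was present in 1952 of 21770 such windows (9.0%), and in the windows of 3 of the 10 members, Relb, Nfkbia and Nfkbie. Only bases upstream of the start site are printed, 5′ to 3′ on the strand of the gene, with the consensus match in capitals.
Relb (chr7:19363431-19363480, minus strand, match 37 bases before the start site): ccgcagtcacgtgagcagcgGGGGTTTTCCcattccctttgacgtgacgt
Nfkbia (chr12:55539433-55539481, minus strand, match 29 bases before the start site): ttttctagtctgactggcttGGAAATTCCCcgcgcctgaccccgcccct
Nfkbie (chr17:45866500-45866549, plus strand, match 86 bases before the start site): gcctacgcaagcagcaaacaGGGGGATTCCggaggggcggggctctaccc
The Relb and Nfkbie matches read along the gene's strand and the Nfkbia match reads on the opposite strand. The Relb window held 2 matches to the consensus, of which 1 is shown. A match is a description of the letters and not a measured binding site, and the windows without one say only that the letters are not in those bases.

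The levels of the members were compared per length, as CPM per kb of exon. In siNTC BSA, Rela, which encodes the p65 subunit, stood highest at 21 ± 0.472 CPM per kb (SD, n = 3). Its level overlapped that of Nfkb2, the precursor of p52, at 20.2 ± 0.631 CPM per kb. Nfkbia, which encodes IkappaB alpha, followed at 15.2 ± 0.795, then Nfkb1, the precursor of p50, at 10.5 ± 0.654, and Nfkbib, which encodes IkappaB beta, at 8.38 ± 0.608 CPM per kb. Relb stood at 5.06 ± 0.229, and Nfkbiz, for IkappaB zeta, at 3.66 ± 0.0824 CPM per kb. The libraries of Nfkbiz overlapped those of Nfkbie, for IkappaB epsilon, at 3.18 ± 0.441 CPM per kb. Bcl3 at 2.15 ± 0.191 and Rel, for c-Rel, at 1.86 ± 0.0765 CPM per kb were the lowest of the 10. All other neighbours in this order were apart in every library of siNTC BSA. In siNTC PA the order was the same except that Nfkbib (13.5 ± 0.755 CPM per kb) stood above Nfkb1 (11.6 ± 0.400 CPM per kb). There the highest Nfkb2 library (27.8 CPM per kb) was just above the lowest Rela library (27.7 CPM per kb). All other neighbours were apart in siNTC PA. The plot of levels per length shows both orders.

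**Figure D1:**
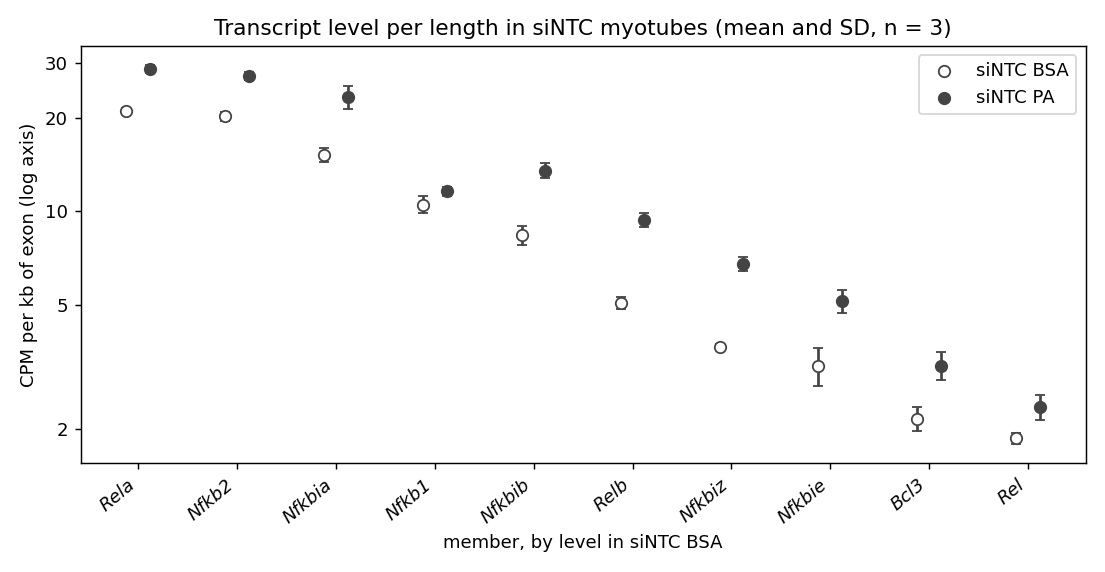
Transcript level of each member in siNTC myotubes as CPM per kb of exon on a log axis, with open points for BSA and filled points for PA (mean, bars SD, n = 3). Rela, Nfkb2 and Nfkbia stand highest in both media, Nfkb1 has the smallest gap between media, and Nfkbib passes Nfkb1 in PA.

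Most of the members were higher with PA. In siNTC myotubes 8 of the 10 were called higher in PA than in BSA, by an FDR below 0.05 and a fold change above 1.3, against 15.5% of the 21772 tested genes. None was called lower, against 15.1% of tested genes. The other two, Nfkb1 and Rel, had an FDR below 0.05 and a fold change under 1.3. For all 10 members every PA library of siNTC lay above every BSA library, which was so for 26.9% of tested genes. The median log2 fold change was 0.58 over the 10 members and -0.03 over all tested genes. The tested genes include some with only 10 counts in total, whereas every member had at least 69 counts in each library. With edgeR's filter on expression, which kept 15040 genes, 3055 were called higher and 3300 lower with PA in siNTC. The plot of CPM by library gives the values of all 6 groups.

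**Figure D2:**
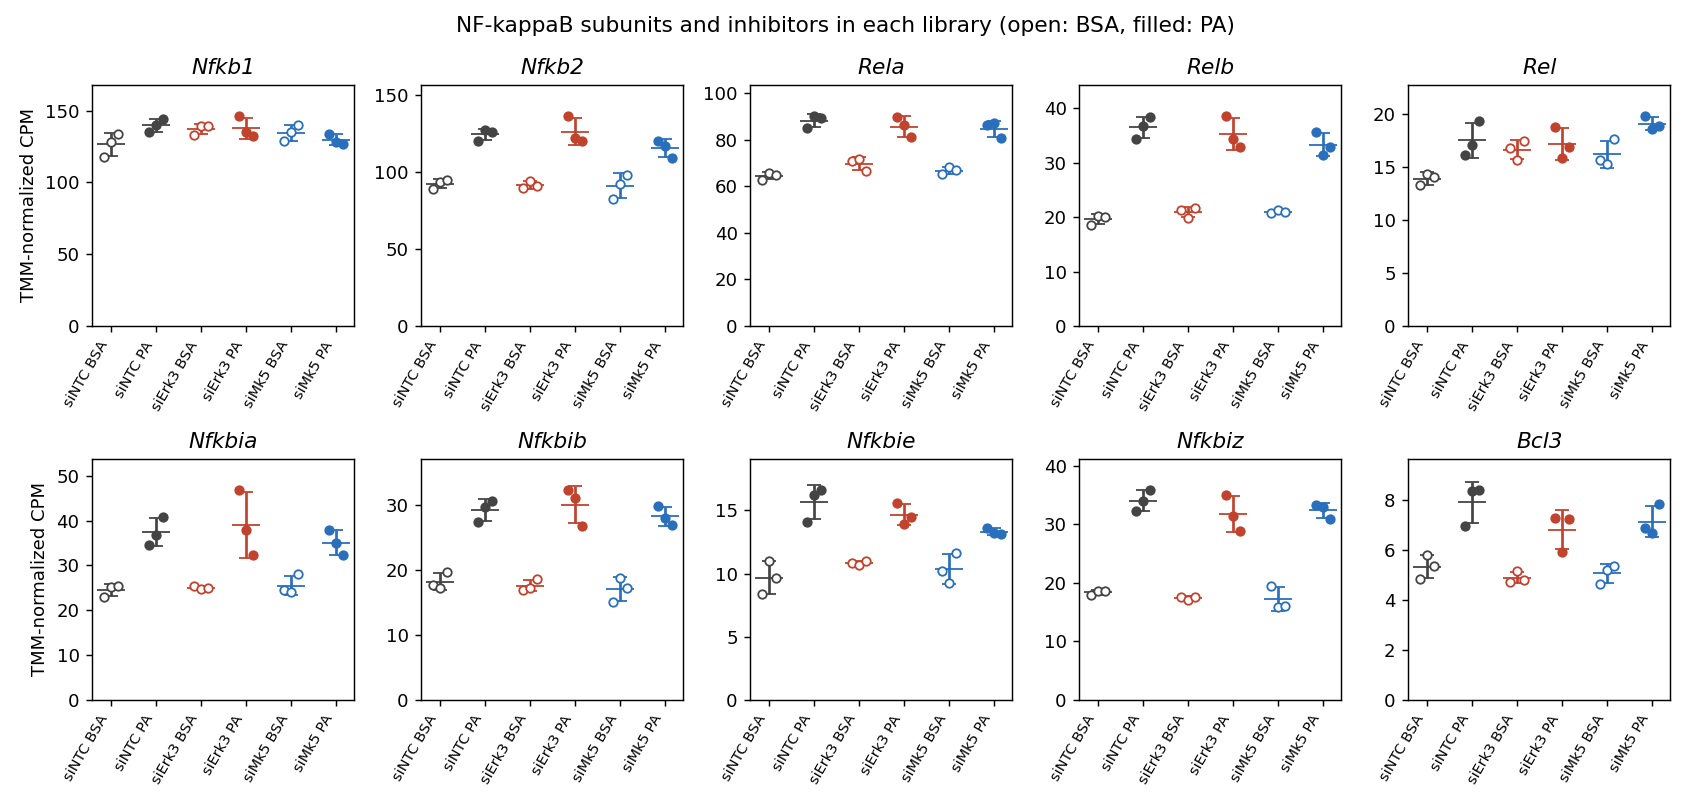
Level of each member in each of the 18 libraries as TMM-normalized CPM, with axes from 0, open points for BSA and filled points for PA (horizontal lines mean, bars SD, n = 3). Every PA library lies above every BSA library for 8 of the 10 members, and the media overlap for Nfkb1 and Rel.

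Among the subunits, Relb had the largest difference between media. RelB pairs mainly with p52 and is best known from the alternative pathway. Its level was 18.6, 20.2 and 20.1 CPM in the 3 siNTC BSA libraries and 34.4, 36.8 and 38.3 CPM in the 3 siNTC PA libraries. All PA libraries were above all BSA libraries, with a log2 fold change of 0.89 ± 0.07 (SE, FDR = 3.34e-12). The levels in siErk3 were 21.3, 19.9 and 21.7 CPM in BSA and 38.5, 34.3 and 32.8 CPM in PA. In siMk5 they were 20.7, 21.3 and 21 CPM in BSA and 35.6, 31.5 and 32.9 CPM in PA. The media were again apart, and Relb was called higher with log2 fold changes of 0.75 ± 0.07 in siErk3 and 0.67 ± 0.07 in siMk5.

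Nfkb2, whose product p100 is processed to p52, the partner of RelB, stood at 89.1, 93.6 and 94.5 CPM in siNTC BSA and at 120, 127 and 126 CPM in siNTC PA. The groups did not overlap, and the log2 fold change was 0.43 ± 0.06 (FDR = 1.73e-07). Rela, the main transactivating subunit of the classical pathway, was measured at 62.9, 65.8 and 64.8 CPM in siNTC BSA and at 85.2, 90.0 and 89.4 CPM in siNTC PA. These groups were also apart, with a log2 fold change of 0.45 ± 0.05 (FDR = 4.61e-09). Nfkb2 was also called higher in siErk3, with a log2 fold change of 0.46 ± 0.06. Its log2 fold change of 0.35 ± 0.06 in siMk5 had an FDR below 0.05 and missed the fold criterion, which corresponds to 0.38 on the log2 scale. Rela likewise missed the fold criterion alone in siErk3 (0.30 ± 0.05) and in siMk5 (0.34 ± 0.05).

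Nfkb1, which encodes p105 and from it p50, differed least between groups. Its level was 118, 128 and 134 CPM in siNTC BSA and 135, 140 and 144 CPM in siNTC PA. The lowest PA library was just above the highest BSA library, and the log2 fold change of 0.13 ± 0.05 (FDR = 0.0278) was under the fold criterion. With siErk3 and siMk5 the media overlapped, with log2 fold changes of 0.01 (95% interval -0.09 to 0.11) and -0.05 (-0.15 to 0.05). Rel, known mostly from lymphoid cells, stood at 13.3, 14.4 and 14.1 CPM in siNTC BSA and at 16.2, 17.1 and 19.4 CPM in siNTC PA. The siNTC groups were apart, with a log2 fold change of 0.33 ± 0.08 (FDR = 0.00161) under the fold criterion. In siErk3 the Rel levels of 16.8, 15.7 and 17.5 CPM in BSA overlapped those of 18.8, 15.9 and 16.9 CPM in PA. In siMk5 the media were apart, and the log2 fold change of Rel was 0.23 ± 0.08 (FDR = 0.0177), under the fold criterion.

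All 3 classical inhibitors were called higher with PA in siNTC and in siErk3. Nfkbia, the inhibitor that is resynthesized first after NF-kappaB activation, was measured at 23, 25.2 and 25.3 CPM in siNTC BSA and at 34.6, 36.8 and 40.9 CPM in siNTC PA. The PA libraries were all above the BSA libraries, with a log2 fold change of 0.60 ± 0.09 (FDR = 2.27e-06). Its levels in siErk3 PA, 46.8, 38.0 and 32.3 CPM, were the most spread of any group, and the first of these libraries was the highest of all 18. Nfkbia was called higher in siErk3 (log2 fold change 0.64 ± 0.09) and in siMk5 (0.46 ± 0.09). Nfkbib, an inhibitor with slower turnover, stood at 17.7, 17.2 and 19.7 CPM in siNTC BSA and at 27.4, 29.7 and 30.6 CPM in siNTC PA, with no overlap. Its log2 fold change was 0.68 ± 0.08 in siNTC (FDR = 2.04e-08), 0.77 ± 0.08 in siErk3 and 0.74 ± 0.08 in siMk5. Nfkbie was measured at 8.36, 11 and 9.65 CPM in siNTC BSA and at 14.1, 16.2 and 16.6 CPM in siNTC PA. These groups were apart too, with a log2 fold change of 0.67 ± 0.09 (FDR = 4.81e-07). For Nfkbie the log2 fold change was 0.43 ± 0.09 in siErk3 and 0.37 ± 0.09 in siMk5, where it missed the fold criterion.

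Both nuclear inhibitors were called higher with PA under all 3 siRNA pools. Nfkbiz, an inducible cofactor of p50 dimers at secondary response genes, stood at 17.9, 18.6 and 18.6 CPM in siNTC BSA and at 32.2, 33.9 and 35.8 CPM in siNTC PA. The media were apart, and the log2 fold change was 0.88 ± 0.08 (FDR = 3.05e-11). In siErk3 its level was 17.5, 17 and 17.6 CPM in BSA and 34.9, 31.3 and 28.9 CPM in PA. In siMk5 it was 19.5, 15.8 and 16.1 CPM in BSA and 33.2, 32.9 and 30.9 CPM in PA. Nfkbiz had log2 fold changes of 0.87 ± 0.07 in siErk3 and 0.91 ± 0.08 in siMk5. Bcl3, which binds p50 and p52 homodimers, was measured at 4.85, 5.79 and 5.34 CPM in siNTC BSA and at 6.97, 8.35 and 8.39 CPM in siNTC PA. Its PA libraries were again above its BSA libraries, with a log2 fold change of 0.55 ± 0.12 (FDR = 1.84e-04). Bcl3 had the lowest counts of the 10 and the widest intervals, and its log2 fold change was 0.47 ± 0.11 in siErk3 and 0.50 ± 0.12 in siMk5.

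The PA comparisons in the 3 silencing conditions used separate libraries. In siErk3, 7 of 10 members were called higher (15.8% of tested genes) and 0 lower (16.3% of tested genes), and 8 of 10 had PA libraries all above BSA libraries (27.5% of tested genes). In siMk5, 5 of 10 members were called higher (15.1% of tested genes) and 0 lower (14.6% of tested genes), and 9 of 10 did not overlap, with PA higher (27.3% of tested genes). The median log2 fold change over the members was 0.46 in siErk3 and 0.42 in siMk5, and over all tested genes it was -0.01 in both. Over the 9 BSA and 9 PA libraries of all conditions, 8 of 10 members had every PA library above every BSA library, against 18.4% of tested genes. Relative to its level the gap was widest for Nfkbiz, at 15.8 to 19.5 CPM in BSA and 28.9 to 35.8 CPM in PA, and for Relb, at 18.6 to 21.7 CPM in BSA and 31.5 to 38.5 CPM in PA. By contrast, Nfkb1 spanned 118 to 140 CPM in BSA and 127 to 146 CPM in PA, and Rel spanned 13.3 to 17.7 CPM in BSA and 15.9 to 19.8 CPM in PA.

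Markers of myotubes and of other cells also moved between the media. Of the 9 myotube markers, 4 were called lower with PA in siNTC (Myog, Ckm, Ttn and Mymk) and 1, Myog, in siErk3 and in siMk5, against 15.1%, 16.3% and 14.6% of tested genes. Myog, which encodes the differentiation factor myogenin, had log2 fold changes of -0.59 ± 0.04, -0.48 ± 0.04 and -0.44 ± 0.04 in siNTC, siErk3 and siMk5. The summed level of the 6 markers of undifferentiated or cycling myoblasts was 870 to 944 CPM in BSA and 363 to 479 CPM in PA, and 5 of the 6 were called lower with PA under each siRNA pool, against the same shares. The 4 fibroblast markers summed to 24.3 to 34.5 CPM in BSA and 12 to 17.7 CPM in PA, and 2, 2 and 3 of them were called lower in siNTC, siErk3 and siMk5. The 7 leukocyte markers summed to 7.25 to 9.08 CPM in BSA and 7.75 to 9.45 CPM in PA, with Adgre1 at 0, so the ranges of the 2 media overlapped. Most of this sum was Cd14, with group means of 5.37 to 6.45 CPM and no call. Of the 5 leukocyte markers tested, Csf1r was called lower with PA in siNTC (0.449 CPM in BSA and 0.153 CPM in PA) and in siErk3 (0.309 and 0.0864 CPM), and Cd68 was called higher in siMk5 (0.938 CPM in BSA and 1.5 CPM in PA). The 3 endothelial markers summed to at most 1.12 CPM, and of these Kdr, with 0 counts in every BSA library, was called higher with PA in siErk3 and siMk5, at means of 0.24 and 0.139 CPM. The 3 adipocyte markers summed to at most 0.0516 CPM, and none was tested. The part of these markers in the members' differences was not tested, and in bulk RNA fewer cells of a type and less RNA per cell cannot be told apart.

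The make-up of each class by level per length in the 2 media is given as a description without a test. Among the summed CPM per kb of the 5 subunits in siNTC, Relb took 8.63% ± 0.106 (SD, n = 3) in BSA and 11.8% ± 0.262 in PA. Nfkb1 took 17.9% ± 0.567 of the same sum in BSA and 14.6% ± 0.175 in PA. Rela, at 35.9% ± 0.592 and 36.3% ± 0.310, and Nfkb2, at 34.4% ± 0.127 and 34.3% ± 0.279, kept similar shares. Within the classical inhibitors Nfkbia made up 56.8% ± 0.680 of the sum in BSA and 55.5% ± 0.950 in PA. The ratio of the summed CPM per kb of the 3 classical inhibitors to that of the 5 subunits was 0.457 ± 0.00946 in siNTC BSA and 0.529 ± 0.0231 in siNTC PA. It was 0.442 ± 0.0129 and 0.548 ± 0.0440 in siErk3, and 0.449 ± 0.0151 and 0.525 ± 0.0149 in siMk5, so that the PA libraries were above the BSA libraries under each siRNA pool.

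None of the members was called after silencing of either kinase. With siErk3, 0 of 10 were called in BSA (0.785% of tested genes called) and 0 of 10 in PA (0.556% of tested genes). With siMk5, 0 of 10 were called in BSA (0.0643% of tested genes) and 0 of 10 in PA (0.547% of tested genes). Both silencing conditions were compared with the same siNTC libraries. By edgeR's quasi-likelihood test 3 members had an unadjusted p below 0.05 with siErk3 in BSA, 1 with siErk3 in PA, 1 with siMk5 in BSA and 2 with siMk5 in PA, and DESeq2 also called 0 in each of the 4 comparisons. The 95% intervals of the members' log2 fold changes lay between -0.39 and 0.43 for siErk3 in BSA, between -0.44 and 0.24 for siErk3 in PA, between -0.35 and 0.39 for siMk5 in BSA and between -0.41 and 0.29 for siMk5 in PA.

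**Figure D3:**
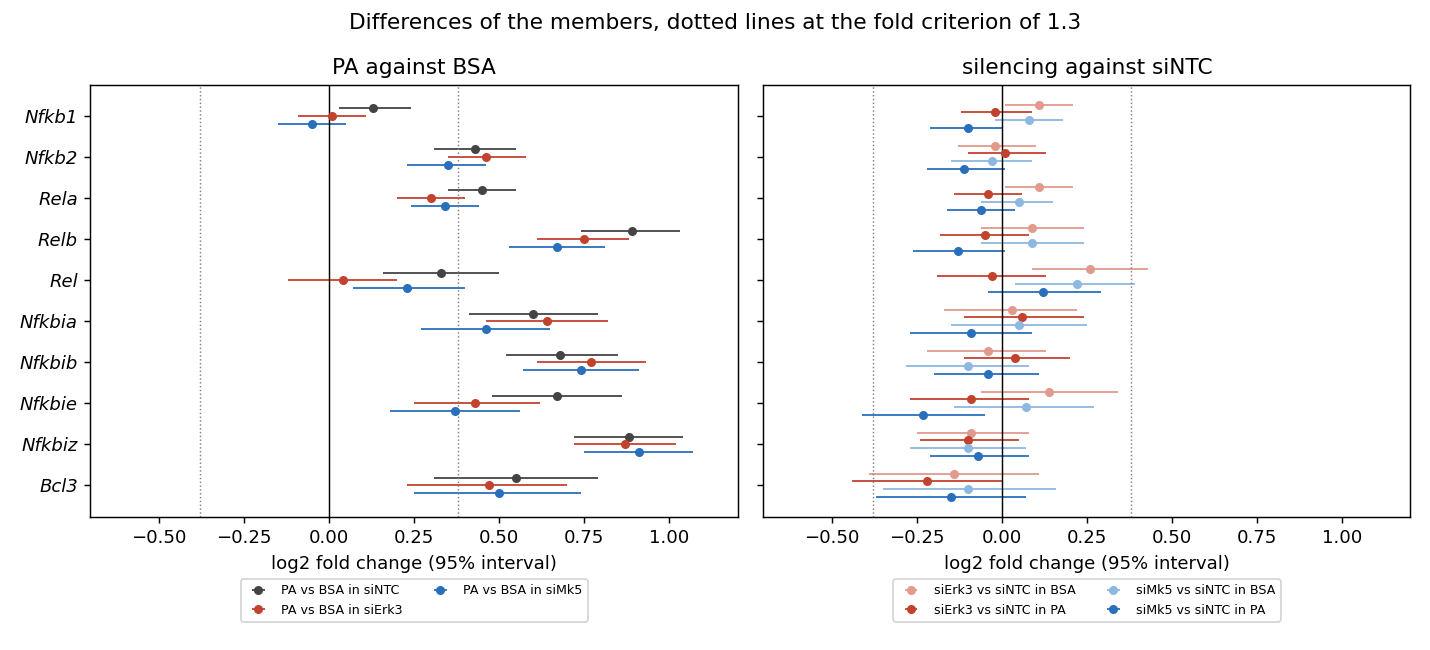
Log2 fold change of each member with its 95% interval for PA against BSA under each siRNA pool (left) and for silencing against siNTC in each medium (right), with dotted lines at the fold criterion of 1.3. With PA most points lie to the right of 0, whereas with silencing no member passed the criteria.

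Rel had the largest silencing difference in BSA. Its level of 16.8, 15.7 and 17.5 CPM in siErk3 BSA and of 15.7, 15.3 and 17.7 CPM in siMk5 BSA lay above the 13.3 to 14.4 CPM of siNTC BSA. The log2 fold change was 0.26 ± 0.08 with siErk3 (unadjusted p = 0.0043, FDR = 0.182) and 0.22 ± 0.08 with siMk5 (unadjusted p = 0.0159, FDR = 0.612), and both rest on the same 3 control libraries. In PA the largest differences were those of Nfkbie with siMk5, at -0.23 ± 0.09 (FDR = 0.515), and of Bcl3 with siErk3, at -0.22 ± 0.11 (FDR = 0.597). Nfkbie levels of 13.6, 13.2 and 13.1 CPM in siMk5 PA were all below the siNTC PA levels. Between siErk3 and siMk5, 0 of 10 members were called in BSA (0.588% of tested genes) and 0 of 10 in PA (1.03% of tested genes), with 0 and 1 members at an unadjusted p below 0.05 and 0 called by DESeq2 in both.

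The difference in the PA response between silenced and control myotubes was tested with an interaction term. No member was called for siErk3 (0.0367% of tested genes called) or for siMk5 (0.211% of tested genes called), with edgeR or with DESeq2, and 2 and 3 members respectively had an unadjusted p below 0.05. The largest interaction for siErk3 was that of Rel, at -0.29 (95% interval -0.52 to -0.05, FDR = 0.702). For siMk5 it was that of Nfkbie, at -0.30 (95% interval -0.57 to -0.02, FDR = 0.650), followed by Relb at -0.22 (-0.42 to -0.02, FDR = 0.650). The smaller number of members called with PA in siMk5 than in siNTC was therefore not matched by a called difference between the responses. For Nfkbiz the interval of the interaction ran from -0.23 to 0.21 with siErk3 and from -0.19 to 0.25 with siMk5.

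The genes around the members in the pathway were followed in 5 lists. Of 20 kinases and adaptors upstream of the members, 6 were called higher and 2 lower with PA in siNTC (15.5% and 15.1% of tested genes), 8 and 2 in siErk3 (15.8% and 16.3%), and 6 and 3 in siMk5 (15.1% and 14.6%). The median log2 fold change of this list was 0.22 in siNTC, 0.29 in siErk3 and 0.21 in siMk5. Ikbkg, the regulatory subunit of IkappaB kinase, rose from 56.7 ± 4.42 to 114 ± 0.632 CPM in siNTC, a log2 fold change of 1.01 ± 0.05 (FDR = 2.91e-17). Myd88, the adaptor of Toll-like and interleukin 1 receptors, rose by a log2 fold change of 1.28 ± 0.08 and Ripk1, a kinase of the TNF receptor complex, by 0.79 ± 0.06. Map3k14, the NF-kappaB inducing kinase that drives p100 processing, fell by 0.53 on the log2 scale, from 43.6 ± 1.48 to 30.2 ± 0.967 CPM. Nfkb2 and Relb, which act in the same alternative pathway, were among the members called higher in these libraries.

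Of 12 other regulators, 3 were called higher with PA in siNTC (15.5% of tested genes), 5 in siErk3 (15.8%) and 4 in siMk5 (15.1%). None was called lower, against 15.1%, 16.3% and 14.6% of tested genes, and the median log2 fold change was 0.13, 0.29 and 0.19 in siNTC, siErk3 and siMk5. N4bp1, an inhibitor of NF-kappaB signalling, rose from 101 ± 3.52 to 182 ± 3.20 CPM (log2 fold change 0.86 ± 0.05). Zc3h12a, an RNase that degrades inflammatory transcripts, rose by 0.64 ± 0.10 and Otulin, a deubiquitinase of linear chains, by 0.47 ± 0.06 on the log2 scale. Tnfaip3, which encodes the feedback inhibitor A20 and is named here after its values were seen, stood at 19.5 ± 2.38 CPM in siNTC BSA and 21.7 ± 3.72 CPM in siNTC PA (FDR = 0.339). Its groups overlapped, unlike those of Nfkbia.

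Of 13 receptors, 6 were called higher and 2 lower with PA in siNTC (15.5% and 15.1% of tested genes) and in siErk3 (15.8% and 16.3%), and 3 higher and 2 lower in siMk5 (15.1% and 14.6%). Without Tnfrsf11a, which had 2 counts in each group, the median log2 fold change of 12 receptors in siNTC was 0.38. With the same floor of 3 counts over a group it was 0.52 over 13 receptors in siErk3 and 0.25 over 12 in siMk5. Tlr4, the receptor for lipopolysaccharide, rose from 42.6 ± 0.795 to 81.3 ± 4.10 CPM (log2 fold change 0.93 ± 0.06), and Tnfrsf12a, the receptor for TWEAK, from 159 ± 10.0 to 314 ± 31.3 CPM. Il1r1, the signalling receptor for interleukin 1, fell by 0.85 on the log2 scale, while Il1rap, its coreceptor, rose by 1.03. With siMk5 in PA, Tlr3, a receptor for double-stranded RNA, was called lower than in siNTC (log2 fold change -0.89 ± 0.13, FDR = 8.89e-05).

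Of 9 ligands, 7 were tested and most had few counts. Il1b, for interleukin 1 beta, rose from 2.00 ± 0.280 to 4.89 ± 0.625 CPM with PA in siNTC (log2 fold change 1.31 ± 0.18), and Tnfsf12, for TWEAK, fell by 0.73 on the log2 scale. Tnf had 0 counts over the 3 siNTC BSA libraries and 22 over the 3 siNTC PA libraries, at least 6.38-fold higher when the BSA group was set at a floor of 3 counts over the group. Of the 7 tested ligands, 2 were called higher and 1 lower in siNTC (15.5% and 15.1% of tested genes), and 3 higher and 1 lower both in siErk3 (15.8% and 16.3%) and in siMk5 (15.1% and 14.6%). With the BSA counts of Tnf and Il1a, 0 and 1, both set at the floor of 3 and without Tnfsf11, which was under the floor in both groups, the median log2 fold change of 6 ligands in siNTC was 1.07. By the same rule it was 0.34 in siErk3 and 0.43 in siMk5, over 7 ligands each.

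Of 24 NF-kappaB target genes, 22 were tested, and 14 were called higher with PA in siNTC (15.5% of tested genes), 15 in siErk3 (15.8%) and 12 in siMk5 (15.1%). None was called lower, against 15.1%, 16.3% and 14.6% of tested genes. With Csf2 in BSA set at the floor of 3 counts and without Icam1, which was not above the floor in either group, the median log2 fold change of 21 targets in siNTC was 1.33. By the same rule it was 1.40 over 19 targets in siErk3 and 1.13 over 21 in siMk5. Cxcl10, a chemokine gene, rose from 0.552 ± 0.226 to 85.6 ± 7.58 CPM in siNTC (log2 fold change 7.34 ± 0.20, FDR = 1.43e-23). Ptgs2, which encodes cyclooxygenase 2, rose from 31.4 ± 3.88 to 1570 ± 329 CPM, and Tnfaip2 from 71.6 ± 5.41 to 304 ± 32.9 CPM. The members' log2 fold changes in siNTC reached at most 0.89, and 13 of the 21 targets lay above that value and 8 below it, so that the targets overlapped the members in the plot of the lists.

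**Figure D4:**
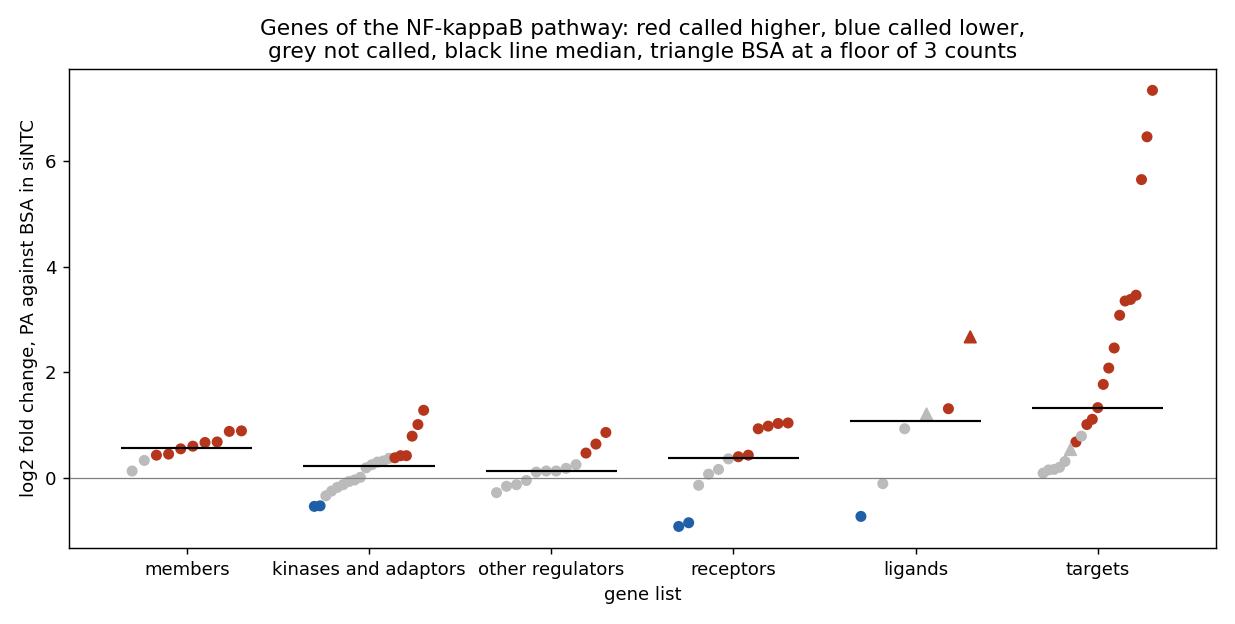
Log2 fold change with PA against BSA in siNTC for each tested gene of the members and of the 5 lists, with red for called higher, blue for called lower, grey for not called and a black line at the list's median. The triangles are Tnf, Il1a and Csf2 with BSA set at the floor of 3 counts, and Tnfsf11, Tnfrsf11a and Icam1, which were not above the floor in either group, are left out. The members lie between 0.13 and 0.89, and the targets reach 7.34.

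Between the siRNA pools in PA, 4 of the 22 tested targets were called with siMk5, all lower (0.547% of tested genes were called in either direction), and 1 higher and 1 lower with siErk3 (0.556%). Between the siErk3 and siMk5 libraries in PA, 6 of the 22 were higher in siErk3 and none lower (1.03% of tested genes), among them Cxcl10 (log2 fold change 1.09 ± 0.10). The 3 comparisons share libraries pairwise. The members' count of 0 of 10 in each was near the share of all tested genes called, and the difference between members and targets was not tested. With siMk5, Cxcl10 (log2 fold change -0.81 ± 0.10), Ccl2 (-0.58 ± 0.12), Ccl7 (-0.58 ± 0.11) and Ccl5 (-0.47 ± 0.10), all chemokine genes, were lower than in siNTC. In the same comparison the ligand gene Il1b was called higher, at 8.16 ± 0.783 CPM in siMk5 PA against 4.89 ± 0.625 CPM in siNTC PA (log2 fold change 0.74 ± 0.13, FDR = 0.00134). With siErk3, Ccl5 was higher (0.56 ± 0.09) and Cxcl5 lower (-0.73 ± 0.18) than in the same siNTC libraries.

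Across the 6 groups, Nfkbiz had the largest range of group means (0.99 on the log2 scale), followed by Relb (0.89), and Nfkb1 the smallest (0.14). Likeness of pattern was measured as the root mean square difference of centred log2 CPM over the 18 libraries, against genes whose mean log2 CPM was no more than 3 below that of the member. For Relb the closest of 11055 genes were Timp1 (0.047), Utp4 (0.048), Daam1 (0.050), Aff1 (0.051) and Smurf1 (0.053). For Nfkbiz the closest of 11189 genes were Arl8a (0.074), B3galnt2 (0.076), Slc36a1 (0.077), Atxn2l (0.078) and Tnfrsf10b (0.079). Among the members themselves the closest pair was Nfkb2 and Rela (0.07), and Relb was closest to Nfkbib (0.10) and Nfkbiz (0.12). The farthest pair was Nfkb1 and Nfkbiz (0.44). These values are descriptions over libraries that share a medium. For all 10 members the lowest group mean was in a BSA group and the highest in a PA group. The share of all tested genes with this order was not computed, so the count is not read as a result about the members.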

How the data were processed

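The authors deposited counts of read pairs per gene without normalization for 18 libraries. Per the methods and the file header, the authors trimmed reads, aligned them to GRCm39 with STAR and counted primary, reverse-stranded pairs with featureCounts 2.0.0 (Ensembl 105, strand setting 2, minimum mapping quality 3). The submitters' processing notes name another mouse build, mm10, but the header names GRCm39. A second deposited table holds log2 values by the authors, equal to the log2 of each count divided by 1 factor per library plus 1 (relative deviation at most 7.0e-14), and served only for that check. No column belonged to other samples (0 columns). Groups were taken from the labels.

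Genes whose total reached 10 counts entered TMM normalization and were tested in 1 model of all 18 libraries with edgeR 4.0.16 (quasi-likelihood test, R 4.3.3) for 11 comparisons. P-values were adjusted by Benjamini and Hochberg over the 21772 genes (FDR), and genes were called at an FDR below 0.05 and a fold change above 1.3. Standard errors were derived from the fold change and F statistic. CPM per kb used the exonic length of the count table. The test was checked on simulated data, and no 2 replicates agreed within counting noise. Library totals of 13041979 to 28496727 counts gave each member at least 69 counts per library. Symbols came from GENCODE M39 (21601 of 21772 genes matched).

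Alternatives were DESeq2 1.42.0, its size factors, omission of 18S ribosomal RNA, other filters, FDR alone, a replicate block, fits of the compared groups alone and omission of each library. Named were all members, the silenced genes, up to 4 called genes with the smallest FDR per list and comparison, and the 5 genes nearest in pattern to 2 members; beyond that rule, only markers, Tnfaip3 and genes at the floor of 3 counts. The members and lists were chosen with earlier results of these data known.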

Additional observations from a re-analysis of the deposited data

How the results depend on the processing

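Under the 9 kinds of alternative, no member called with PA lost its call and none reversed. With FDR alone, the fold criterion no longer applied, and 9 members instead of 5 were called with PA in siMk5. Those called in siNTC and siErk3 were 10 and 8. The shares of called genes given above include the fold criterion, so they are no background for these counts. The counts with FDR alone are therefore not read as a result about the members. Leaving out each library gave 8 to 9 in siNTC, 7 in siErk3 and 5 to 7 in siMk5. Nfkb2 and Nfkbie in siMk5 passed without siMk5 BSA replicate 3 (log2 fold changes 0.39 and 0.44) or without siMk5 PA replicate 3 (0.39 and 0.38), and Rel in siNTC passed without siNTC PA replicate 1 (0.38). The 8 comparisons between siRNA pools and of interactions called 0 members under every alternative.

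With the replicate number as a block, 8, 7 and 5 members were called with PA in siNTC, siErk3 and siMk5 (replicate block), as without it. Deviations of same-numbered libraries correlated at means of -0.40 to 0.33 across 10553 genes, and no comparison had all 3 pairs over 0.1. Single pairs ranged from -0.61 (siErk3 against siNTC in PA) to 0.52 (siErk3 against siMk5 in PA). The 3 deviations within a group depend on each other, so these values cannot decide whether same-numbered samples share more than a number. Of the lists, FDR alone raised the called kinases and adaptors to 14, 17 and 18 in siNTC, siErk3 and siMk5 (4, 6 and 7 of them lower). It raised the called other regulators to 7, 8 and 9 (3, 2 and 3 lower), and the receptors in siMk5 to 8 (3 lower). The shares of called genes given above include the fold criterion and are no background for these list counts either. With edgeR's filter on expression 2 ligands were called in siErk3 and 2 in siMk5, where 4 were called before.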
